A study of Homo sapiens with 15 samples.

Results

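A set of 8 genes of the mitochondrial route to caspase activation were followed: APAF1, CYCS and CASP9 of the apoptosome, the effector caspase gene CASP6, the initiator caspase gene CASP2, the inhibitor of apoptosis (IAP) genes XIAP and BIRC2, and DIABLO, whose product counters the IAPs. They were chosen by symbol for their place in this pathway, with earlier results of these data known. They make up 8 of the 60649 genes in the count table. All 8 passed the filter on low counts, which left 23711 genes. The measurements were poly(A) mRNA sequencing counts of K-562 (K562) cells, an established human line of chronic myeloid leukaemia, in 15 libraries that form 5 groups of 3. Cells were left untreated or were exposed for 24 h to 0.15, 0.25, 0.5 or 1 µM martinostat, an inhibitor of histone deacetylases (HDACs). The labels set the groups apart by dose only, and they name no vehicle and no incubation time for the untreated cells. The medium given for this line held 10% serum. The libraries are numbered as biological replicates without a statement of what separated the cultures, so p-values measure the spread between these libraries of a single line.

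In this pathway cytochrome c, the product of CYCS, normally carries electrons in the respiratory chain between the mitochondrial membranes. When it is released into the cytosol it binds APAF1, which assembles into the apoptosome and activates caspase-9, and caspase-9 in turn cleaves the executioner caspases. XIAP blocks caspase-9 and the executioners directly, cIAP1 (the product of BIRC2) is a ubiquitin ligase of death receptor and NF-κB signalling, and SMAC (the product of DIABLO) leaves the mitochondria with cytochrome c and binds to the IAPs. Caspase-2 is activated on its own platform, and caspase-6 is cut by the executioners and cleaves nuclear lamins. These proteins are regulated in large part by release, cleavage and degradation, none of which mRNA counts measure. The comparison asks which transcripts of the route moved with dose.

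The members lie on 5 autosomes and the X chromosome (hg38). CYCS (ENSG00000172115.9) is at chr7:25118656-25125260 on the minus strand and CASP2 (ENSG00000106144.20) at chr7:143288215-143307696 on the plus strand. APAF1 (ENSG00000120868.14) is at chr12:98645290-98735433 on the plus strand and DIABLO (ENSG00000184047.20) at chr12:122207663-122227456 on the minus strand. CASP9 (ENSG00000132906.18) is at chr1:15490832-15526534 and CASP6 (ENSG00000138794.10) at chr4:109688622-109703583, both on the minus strand. XIAP (ENSG00000101966.13) is at chrX:123859712-123913972 and BIRC2 (ENSG00000110330.9) at chr11:102347211-102378670, both on the plus strand. Counts of fragments cover whole genes, exons of all annotated transcripts included.

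APAF1 had the largest rise of the members and CYCS the largest fall at 1 µM, and the sequence just before the start of each is shown so that the most opposed pair can be read side by side. The RefSeq promoter table (GRCh38.p14) held all 8 members, and the first start listed for a gene was used. APAF1 is shown over chr12:98645114-98645289 (plus strand, 176 bases) and CYCS over chr7:25125261-25125510 (minus strand, 250 bases), which leaves out bases under annotated exons, and capitals mark a GC box (GGGCGG or its complement) or a CCAAT box (CCAAT or its complement).
APAF1: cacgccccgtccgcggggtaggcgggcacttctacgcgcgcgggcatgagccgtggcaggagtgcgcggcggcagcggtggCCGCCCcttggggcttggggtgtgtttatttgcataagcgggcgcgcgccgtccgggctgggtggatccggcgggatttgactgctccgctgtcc
CYCS: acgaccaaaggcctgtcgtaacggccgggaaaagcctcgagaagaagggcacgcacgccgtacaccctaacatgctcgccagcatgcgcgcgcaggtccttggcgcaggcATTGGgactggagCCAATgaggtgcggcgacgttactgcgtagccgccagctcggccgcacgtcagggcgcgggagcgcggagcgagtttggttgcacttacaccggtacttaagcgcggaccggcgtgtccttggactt
A set of 6 motifs were searched on both strands in the 250 bases before the start, and overlapping matches were counted separately. GGGCGG was found in 42.3% of the 27305 promoters of the same length, CCAAT in 33% and TATAAA in 11.1%. The rarer E2F cores TTTCGCGC and TTTCCCGC were found in 0.469% and 1.42% of them and the cAMP response element TGACGTCA in 1.77%. Over the full 250 bases CYCS held 2 CCAAT boxes and no GC box, while CASP9, which rose, held 8 GC boxes and no CCAAT box. APAF1 held 1 GC box and 1 CCAAT box, and CASP6, which fell like CYCS, held 3 GC boxes. Of the other members CASP2 and XIAP, called lower at 1 µM, held 4 and 1 GC boxes, and CASP2 also 2 CCAAT boxes. DIABLO, called higher, held 1 GC box, and BIRC2, not called at 1 µM, held neither box. The GC box was thus found in genes that rose and in genes that fell. None of the other 4 motifs was present in the windows of CYCS, APAF1, CASP6 and CASP9. Their G+C content was 64.4% for CYCS, 73.6% for APAF1, 74% for CASP6 and 77.6% for CASP9, against a median of 58% over all promoters. These matches are letters in a window and not evidence of binding.

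Library totals lay between 23755510 and 32805574 counted fragments. The third libraries at 0.25 and 0.5 µM stood apart from the rest on the third principal component, which held 4.47% of the variance, with scores of 70.1 and 75.4 where no other library exceeded 16.0. Replicates 2 and 3 at 0.5 µM also correlated better with a 1 µM library (0.982 and 0.976) than with their own group (0.977 and 0.966). In the untreated cells 7 of 8 markers of K562 cells stood at 27.1 CPM (counts relative to TMM-scaled library size) or more, HBE1 at most at 0.270, and the lymphoid markers CD3E, CD79A and MS4A1 at most at 0.548. Of the markers of other cell types, KRT5 and MS4A1 had 0 counts, while EPCAM went from a mean of 141 CPM in untreated cells to 20.5 at 1 µM, COL1A2 from 18.9 to 9.70 and COL1A1 from 4.36 to 398, and their part in the results was not tested. More genes were called higher than lower at each dose, 58.5% to 62.2% of those called with trimmed mean of M values (TMM) scaling and 69.3% to 81.9% when libraries were scaled by their totals. The median log2 fold change of all genes was 0.28, 0.32, 0.34 and 0.32 at the 4 rising doses with TMM and 0.64, 0.85, 0.72 and 0.67 with library totals, so small changes of a member depend on the scaling. In bulk libraries such as these, fewer cells of a kind and less RNA per cell cannot be told apart.

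In the plot of CPM by dose, CASP9 and APAF1 climbed and CYCS, CASP6 and XIAP dropped, whereas CASP2 was lowest and BIRC2 highest at 0.25 µM. Against untreated cells, edgeR's quasi-likelihood test at an adjusted p under 0.05 called 5 of the 8 members at 0.15 µM (2 higher, 3 lower), where it called 51.2% of all genes tested (31.9% higher, 19.4% lower). It called 7 members at 0.25 µM (3 higher, 4 lower), beside 62.3% of all genes (37.4% higher, 24.8% lower). At 0.5 µM it called 6 members (3 higher, 3 lower), beside 66.9% (39.4% higher, 27.6% lower), and at 1 µM 7 members (3 higher, 4 lower), beside 66.2% (38.8% higher, 27.5% lower). Over the 5 groups together all 8 members differed, as did 73.6% of all genes. With most of the transcriptome called, the number of members called is near the background, and what follows concerns the direction and size of each. The median log2 fold change of the members was 0.0069, -0.056, -0.085 and -0.22 at the 4 doses.

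**Figure D1:**
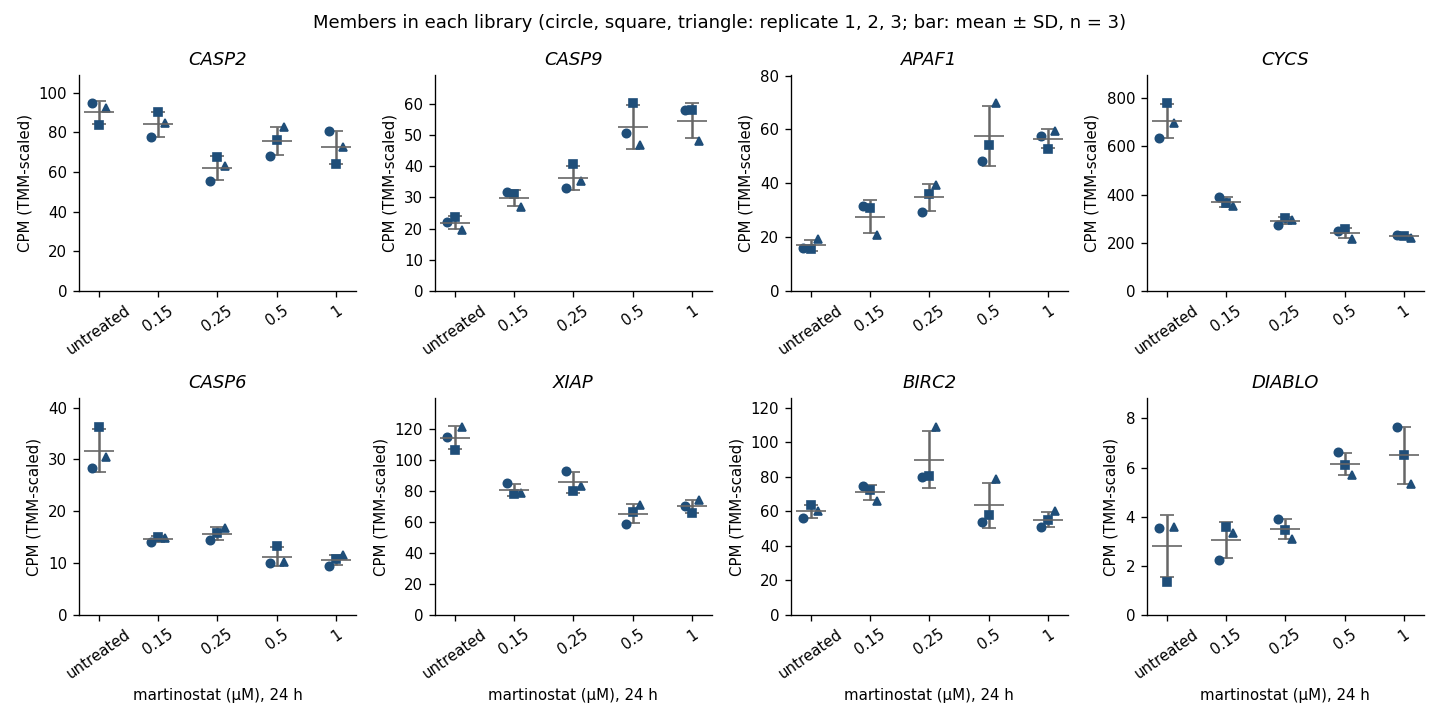
CPM of the 8 members (linear axis from 0) in each of the 15 libraries against the dose of martinostat, with symbols for replicates 1, 2 and 3 and the mean ± SD (n = 3). All treated libraries of CASP9 and APAF1 lie above, and all of CYCS, CASP6 and XIAP below, their untreated libraries.

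Among the genes of the apoptosome the cofactor and the scaffold moved in opposite directions. CYCS, the most abundant member, had 636, 780 and 698 CPM in untreated replicates 1, 2 and 3, the order in which all values by library are given. It had 391, 364 and 352 CPM at 0.15 µM, 275, 302 and 295 at 0.25 µM, 249, 256 and 217 at 0.5 µM and 232, 228 and 219 at 1 µM. No treated library reached the lowest untreated one, the means of the 4 treated groups fell in the order of dose, and the 2 highest doses overlapped. With TMM no step of CYCS between adjacent doses was called (edgeR adjusted p = 0.0995 from 0.15 to 0.25 µM and 0.133 from 0.25 to 0.5 µM). CYCS fell by 0.93 on the log2 scale already at 0.15 µM (SE 0.13, edgeR adjusted p = 1.15e-05) and by 1.64 at 1 µM (SE 0.14, edgeR adjusted p = 4.00e-09), where 32.1% of the untreated level remained. The 4 calls held under all 27 alternatives. Retrocopies of CYCS are common in the human genome and can share reads with it, and the 42 annotated CYCS pseudogenes took at most 93 fragments in any library and, in the library with the highest share, 0.942% of the fragments given to CYCS.

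APAF1 encodes the scaffold that cytochrome c opens. It had 16.0, 15.7 and 19.2 CPM in untreated cells, 31.7, 30.7 and 20.6 at 0.15 µM and 29.4, 35.9 and 39.3 at 0.25 µM. The next doses gave 48.4, 54.3 and 69.8 CPM at 0.5 µM and 57.5, 52.6 and 59.5 at 1 µM. Every treated library was above every untreated one, and the third library at 0.15 µM came closest. The log2 fold change was 0.71 (SE 0.18, edgeR adjusted p = 0.00293) at 0.15 µM, 1.04 at 0.25 µM, 1.76 at 0.5 µM and 1.74 (SE 0.18, edgeR adjusted p = 1.03e-07) at 1 µM, a 3.34-fold rise. The call at 0.15 µM was lost in 2 tests on the deposited FPKM (0.19), and those at the other doses held under all 27 alternatives. The value at 0.5 µM holds a library that stood apart, and without the third libraries of both middle doses it was 1.64. The gene shares 9.67% of its exon bases with ANKS1B on the opposite strand, which had at most 23 fragments in a library.

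CASP9, the initiator caspase of the apoptosome, followed a like course at its own scale. Its untreated libraries held 22.3, 23.8 and 19.7 CPM, those at 0.15 µM 31.7, 31.1 and 27.0 and those at 0.25 µM 33.0, 40.6 and 35.3. At 0.5 µM they held 50.6, 60.3 and 46.8 CPM and at 1 µM 58.0, 57.9 and 48.0, again with no overlap between untreated and treated libraries. The log2 fold changes were 0.45 (SE 0.14, edgeR adjusted p = 0.0143), 0.73, 1.26 and 1.32 (SE 0.15, edgeR adjusted p = 2.15e-07) at the 4 doses, and the last is a 2.49-fold rise. The call at 0.15 µM was lost without untreated replicate 3 (0.38) or without replicate 1 at that dose (0.41), while those at 0.25, 0.5 and 1 µM held under all 27 alternatives.

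CASP6, an effector caspase that cleaves lamins, fell at the lowest dose and further at the higher ones. It stood at 28.3, 36.3 and 30.4 CPM in untreated cells, at 14.0, 15.0 and 14.8 at 0.15 µM and at 14.4, 15.8 and 16.8 at 0.25 µM. At 0.5 µM the libraries held 9.98, 13.3 and 10.3 CPM, and at 1 µM 9.48, 10.8 and 11.4. Treated and untreated libraries did not overlap, and neither did those of the lower and the higher pair of doses. The gene fell by 1.12 on the log2 scale at 0.15 µM (SE 0.16, edgeR adjusted p = 1.12e-05), by 1.01 at 0.25 µM, by 1.50 at 0.5 µM and by 1.58 at 1 µM (SE 0.16, edgeR adjusted p = 7.31e-08), where 33.4% of the untreated level was left. All 4 calls held under the 27 alternatives. Its exons overlap those of MCUB on the opposite strand over 5.04% of their bases, and MCUB moved otherwise, from a sum of 1341 fragments over the untreated libraries to 2171 at 0.15 µM and 906 at 1 µM.

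CASP2, the initiator caspase of the PIDDosome, changed least steadily. Its untreated libraries had 94.8, 83.7 and 92.2 CPM and those at 0.15 µM 77.6, 90.1 and 84.7, which overlapped. Then came 55.7, 67.5 and 63.0 CPM at 0.25 µM, 68.3, 76.0 and 82.7 at 0.5 µM and 80.6, 64.2 and 72.5 at 1 µM. The lowest group was therefore 0.25 µM and not the highest dose. The log2 fold change was -0.10 (edgeR adjusted p = 0.554), -0.54 (SE 0.13, edgeR adjusted p = 0.00173), -0.25 (edgeR adjusted p = 0.101) and -0.32 (SE 0.13, edgeR adjusted p = 0.0431) at the 4 doses. These values turn with the scaling. With library totals the change was -0.014 at 0.25 µM and 0.036 at 1 µM, and with TMM computed on the genes averaging 10 CPM or more it was -0.12 and 0.063, none of them called. At 1 µM the call was lost or the sign turned under 16 of the 27 alternatives, 6 of which left out 1 library: untreated replicate 1 (-0.28) or 3 (-0.30), replicate 3 at 0.15 µM (-0.28), replicate 2 at 0.5 µM (-0.32) and replicate 2 (-0.24) or 3 (-0.32) at 1 µM.

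**Figure D2:**
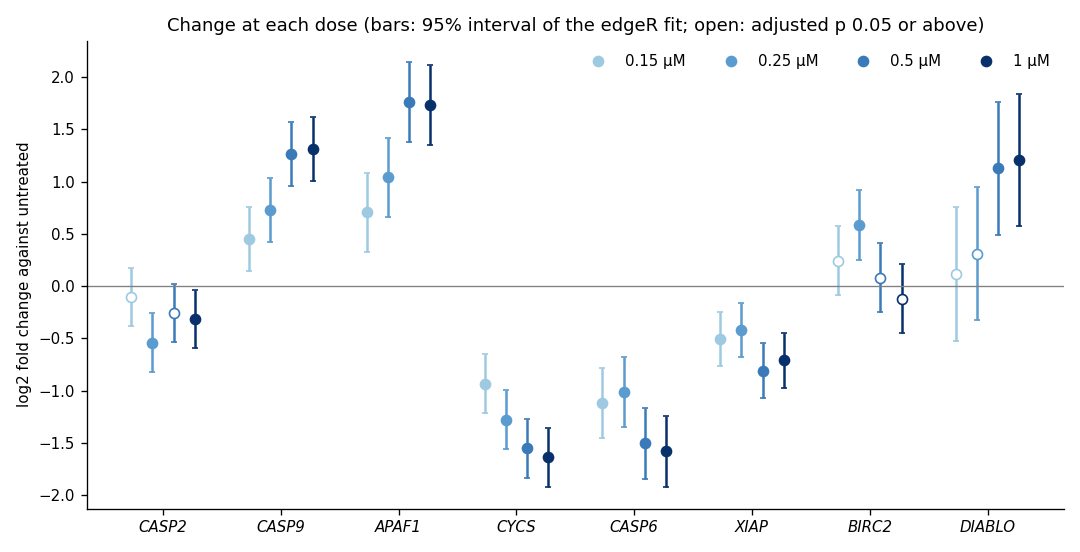
Log2 fold change of the members against untreated cells at the 4 doses (edgeR, TMM scaling), with 95% intervals and open symbols where the adjusted p was 0.05 or above. APAF1 reaches 1.74 and CYCS -1.64 at 1 µM, and the negative values of CASP2 turn positive at 0.15, 0.5 and 1 µM with library totals.

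The IAP genes did not move together. XIAP, the direct inhibitor of caspase-9 and the executioners, had 115, 106 and 121 CPM in untreated cells, 85.0, 77.7 and 78.6 at 0.15 µM and 92.9, 79.9 and 83.1 at 0.25 µM. At 0.5 µM it had 58.4, 66.4 and 70.9 CPM and at 1 µM 70.1, 65.5 and 74.2. All 12 treated libraries were below the lowest untreated one. With TMM, XIAP fell by 0.50 on the log2 scale at 0.15 µM (SE 0.12, edgeR adjusted p = 0.00230), by 0.42 at 0.25 µM (edgeR adjusted p = 0.00666), by 0.81 at 0.5 µM and by 0.71 at 1 µM (SE 0.12, edgeR adjusted p = 6.25e-05). The changes at the lower doses hang on the scaling: with library totals they were -0.14 at 0.15 µM and 0.11 at 0.25 µM, neither called. At 0.5 and 1 µM XIAP was called lower under all count-based alternatives and lost its call only in tests on the deposited FPKM, at 0.5 µM in 1 of them and at 1 µM in all 3.

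BIRC2 peaked at a middle dose. Its untreated libraries stood at 55.9, 63.8 and 60.1 CPM, those at 0.15 µM at 74.6, 72.6 and 66.1 and those at 0.25 µM at 79.9, 80.7 and 109. Higher doses brought 53.8, 58.0 and 78.5 CPM at 0.5 µM and 50.8, 54.9 and 59.9 at 1 µM, which overlapped the untreated range. The libraries of 109 and 78.5 CPM are the ones that stood apart from the rest. Only the rise at 0.25 µM was called, by 0.59 (SE 0.16, edgeR adjusted p = 0.00348), and without the third libraries of both middle doses it was 0.45 and still called. At 0.5 and 1 µM the log2 fold change was 0.082 (95% interval -0.25 to 0.41) and -0.12 (-0.45 to 0.21) with edgeR. At 0.5 µM the value became -0.063 without them and 0.51, called higher, with TMM computed on genes averaging 10 CPM or more. At 1 µM it became 0.24 with library totals. At 0.15 µM the change of 0.25 (edgeR adjusted p = 0.204) was called with library totals, at 0.61, and with TMM computed on genes averaging 10 CPM or more, at 0.51.

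DIABLO, whose protein SMAC displaces caspases from the IAPs, had few counts, 35 to 216 fragments a library. It had 3.52, 1.35 and 3.56 CPM in untreated cells, 2.21, 3.57 and 3.34 at 0.15 µM and 3.90, 3.47 and 3.08 at 0.25 µM, all overlapping. At 0.5 µM it had 6.62, 6.11 and 5.71 CPM and at 1 µM 7.67, 6.49 and 5.33, all above the untreated libraries. The log2 fold change was 0.11 and 0.31 at the lower doses (edgeR adjusted p = 0.779 and 0.390), 1.13 at 0.5 µM (SE 0.30, edgeR adjusted p = 0.00293) and 1.21 at 1 µM (SE 0.30, edgeR adjusted p = 0.00169). The last 2 calls held under all 27 alternatives, and with library totals the value at 0.25 µM was 0.82 and called.

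What the DIABLO counts measure is uncertain. All 6 exons of its canonical transcript (1471 bases) lie under exons of same-strand genes that read through into it, ENSG00000284934 and ENSG00000256861, which themselves had 0 to 19 fragments a library. Fragments inside such exons match several genes, and the setting used for them is not given in the sources used here. In addition 13.9% of its exon bases lie under B3GNT4 on the opposite strand, which went from a sum of 112 fragments over the untreated libraries to 470 at 1 µM, beside 212 and 557 for DIABLO. Where counting leaves such fragments out, as featureCounts does by default, the values of DIABLO rest on exons outside the canonical transcript and are no measure of the main SMAC mRNA. The canonical transcripts of CASP2, CASP9, CYCS, XIAP and BIRC2 share no base with exons of another gene, and those of APAF1 and CASP6 share 10.4% and 5.63%.

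Levels were set per kilobase of exon shared with no other gene, over all annotated transcripts. This length need not be that of the mRNA present, so the order of genes depends on it. For CASP2 it was 8020 bases against 4089 in the canonical transcript, and for CASP6 1845 against 1634. By this measure untreated cells had 122 ± 12.4 CPM per kb of CYCS (SD, n = 3). CASP6 followed with 17.2 ± 2.26, then BIRC2 with 13.3 ± 0.881, XIAP with 12.0 ± 0.789 and CASP2 with 11.2 ± 0.727, and the last 3 overlapped in neighbouring pairs. CASP9 at 4.24 ± 0.405 and APAF1 at 2.42 ± 0.276 were lower, and DIABLO with 0.596 ± 0.268 lowest. At 1 µM the order behind CYCS (39.1 ± 1.14) was BIRC2 (12.2 ± 1.01), CASP9 (10.6 ± 1.10), CASP2 (9.03 ± 1.02), APAF1 (8.07 ± 0.503), XIAP (7.34 ± 0.456) and CASP6 (5.74 ± 0.545). With these lengths CASP6 went from the place behind CYCS to the place before DIABLO (1.38 ± 0.247). The neighbours CASP9 and CASP2, CASP2 and APAF1, and APAF1 and XIAP overlapped between libraries at 1 µM.

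Ratios of members within a library do not depend on how libraries are scaled. Their level depends on the exon lengths used, while their change with dose does not. CASP9 per XIAP, each per kilobase, was 0.358, 0.413 and 0.299 in untreated cells and 1.52, 1.63 and 1.19 at 1 µM. The log2 ratio was higher by 2.02 at 1 µM, and the libraries of the 2 groups did not overlap. CYCS per APAF1 went from 48.1, 60.1 and 44.0 to 4.88, 5.24 and 4.46, a log2 difference of -3.37. Between these ends the geometric mean passed through 16.4 at 0.15 µM, 10.2 at 0.25 µM and 5.11 at 0.5 µM. BIRC2 per XIAP moved less, by 0.59 on the log2 scale, from 1.11 to 1.66, after a highest mean of 2.20 at 0.25 µM. APAF1 per CASP9 differed by 0.43, with overlapping libraries. The ratios of DIABLO to XIAP and to BIRC2 were higher by 2.02 and 1.44. Without untreated replicate 2, where DIABLO was lowest, they were higher by 1.61 and 0.93. In the two-sided exact permutation test of 3 against 3 libraries p was 0.1 for 5 of the 6 ratios (0.12 after Benjamini-Hochberg adjustment over the 6), the smallest this design allows, and 0.2 for APAF1 per CASP9 (adjusted 0.2).

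**Figure D3:**
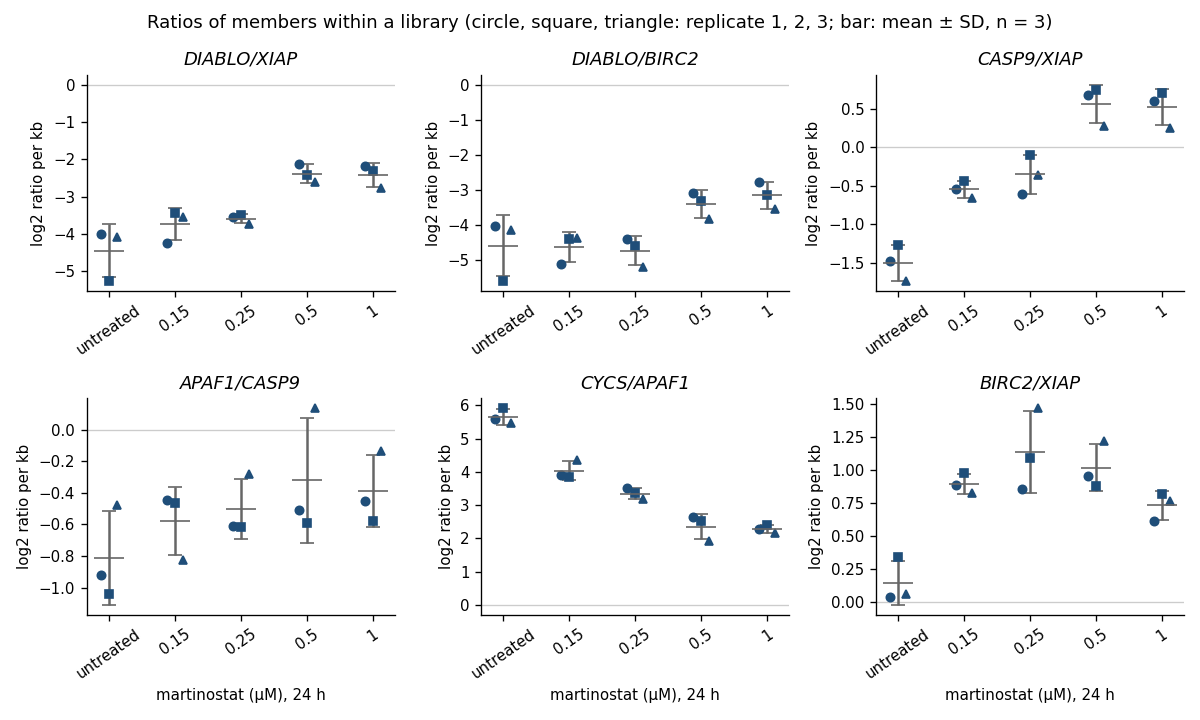
Log2 ratio of 2 members per kilobase of unshared exon within each library against the dose of martinostat, with symbols for replicates and the mean ± SD (n = 3). CASP9/XIAP rises from -1.50 in untreated cells to 0.52 at 1 µM, and CYCS/APAF1 declines from 5.65 in untreated cells to 2.28 at 1 µM. Where a ratio stands against 0 depends on the exon lengths used.

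Steps between adjacent doses were uneven. From 0.15 to 0.25 µM 1 of the 8 members was called, CASP2 (-0.44, edgeR adjusted p = 0.0373), beside 12.3% of all genes, and that call was lost under 17 of the 27 alternatives. Among them were the fits without replicate 1 (-0.49), 2 (-0.39) or 3 (-0.39) at 0.15 µM, replicate 1 (-0.37) or 3 (-0.45) at 0.25 µM, untreated replicate 3 (-0.44) and replicate 3 at 1 µM (-0.44). From 0.25 to 0.5 µM 6 members were called beside 30.4% of all genes. CASP9 (0.53), APAF1 (0.72) and DIABLO (0.82, edgeR adjusted p = 0.0429) were higher, and CASP6 (-0.49), XIAP (-0.39) and BIRC2 (-0.50) were lower. Each of these calls was lost under some of the alternatives. With library totals those of CASP9 (0.38), APAF1 (0.59) and DIABLO (0.67) were lost, and APAF1 was called in none of the 3 limma tests on FPKM (0.20 to 0.48). In a fit of the groups compared alone CASP9, CASP6, XIAP and BIRC2 were not called. The call of CASP9 was lost without replicate 2 at 0.5 µM (0.42), and that of DIABLO in 9 of the 15 fits without 1 library (0.74 to 0.91). The call of CASP6 was lost without replicate 2 (-0.48) or 3 (-0.43) at 0.25 µM or replicate 1 (-0.42) or 3 (-0.43) at 0.5 µM. The call of XIAP was lost without replicate 1 at 0.25 µM (-0.32) or replicate 1 (-0.31) or 2 (-0.40) at 0.5 µM, and that of BIRC2 without replicate 3 at 0.25 µM (-0.34) or replicate 1 (-0.40) or 2 (-0.44) at 0.5 µM. Without the third libraries of both doses, 4 members remained called: CASP9, APAF1, XIAP and BIRC2.

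Between 0.5 and 1 µM no member was called, and 0% of all genes were (edgeR, with 372 genes at an unadjusted p under 0.05, and DESeq2 likewise called 0). The 95% intervals of the difference bound what was missed: -0.37 to 0.19 for CYCS, -0.39 to 0.34 for APAF1, -0.24 to 0.36 for CASP9 and -0.53 to 0.69 for DIABLO, the widest. Over the whole range from 0.15 to 1 µM 5 members were called beside 44.5% of all genes. CASP9 (0.87), APAF1 (1.03) and DIABLO (1.09) were higher and CYCS (-0.71) and CASP6 (-0.46) lower at 1 µM. The call of CASP6 was lost without replicate 2 (-0.44) or 3 (-0.41) at 0.15 µM or replicate 1 at 1 µM (-0.39). It was also lost with RLE scaling (-0.36), DESeq2 (-0.36), TMM computed on genes averaging 10 CPM or more (-0.34), no filter (-0.48) and limma on log2(FPKM + 1) without the filter (-0.22). XIAP differed by -0.20 (95% interval -0.46 to 0.06) and CASP2 by -0.22 (-0.49 to 0.06), neither called. Against untreated cells XIAP was at -0.50 at 0.15 µM and -0.71 at 1 µM under TMM. The interval of its difference is too wide to tell how much of the change came after the lowest dose.

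**Figure D4:**
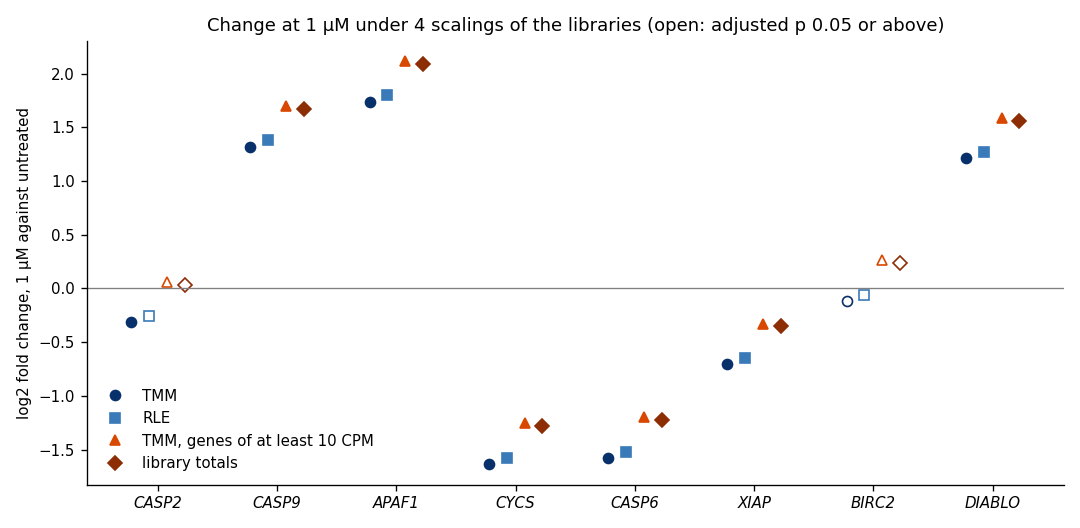
Log2 fold change of the members at 1 µM against untreated cells with libraries scaled by TMM, RLE (DESeq2's size factors), TMM computed on genes averaging 10 CPM or more, or library totals, open where the adjusted p was 0.05 or above. CASP9, APAF1 and DIABLO stay above 0 and CYCS, CASP6 and XIAP below 0 with each scaling, while CASP2 and BIRC2 cross 0.

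For each member the genes with the most similar course over the 15 libraries were read off, among the 10127 genes averaging 10 CPM or more. Pearson's r of log2 CPM is given as a description, since the libraries fall into dose groups and many genes follow dose. CYCS was matched most closely by NAE1 (0.996) and MRS2 (0.995), and CASP6 by UBE2V2 (0.981) and COIL (0.980). APAF1 was matched by RALGPS1 (0.988), and CASP9 had STK17A (0.987) and SNN (0.981). XIAP was followed by ENSG00000283633 (0.952) and SLC25A21 (0.944), and BIRC2 by ENSG00000216775 (0.947) and STARD4 (0.935). DIABLO (ZNF557 at 0.903 and SLC13A3 at 0.891) and CASP2 (SNX19 and MUS81, both 0.867) had the weakest matches. No member was among the 2 best matches of another.

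Of 22 other genes of the pathway, 20 were tested (BIRC8 and XAF1 were too low). At 0.15 µM 5 were called higher and 6 lower, at 0.25 µM 4 and 9, and at both 0.5 and 1 µM 5 and 9. Taking both directions together, the number called was near the share of all genes called. The split by direction differed. In the list falls outnumbered rises at every dose with TMM. Among all genes rises outnumbered falls, by 38.8% to 27.5% at 1 µM. With library totals the list had 6 higher and 5 lower at 0.15 µM, and 5 higher and 8 lower at 1 µM. The median log2 fold change of the list was -0.43, -0.35, -0.33 and -0.30 at the 4 doses with TMM, where the medians of all genes were positive. Those medians take in genes averaging under 10 CPM. They were 0.54, 0.73, 0.75 and 0.70 with TMM computed on genes averaging 10 CPM or more. The list was not compared with genes of a like level.

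The highest of the list at 1 µM came from nearly silent genes. SEPTIN4, which encodes the IAP antagonist ARTS among its products, had 8 fragments over the 3 untreated libraries and 2070 at 1 µM. That is a ratio of 229 in CPM (95% counting interval 116 to 531). The counts cover all 33 annotated transcripts of the gene and do not tell ARTS from the others. The gene shares 11.6% of its exon bases with SEPTIN4-AS1 on the opposite strand. BIRC3, which encodes cIAP2, had 30 fragments in untreated cells and 1169, 1890, 585 and 636 at the 4 doses, which is 34.5, 49.1, 17.8 and 18.8 times the untreated level. BIRC3 lies beside BIRC2 on chromosome 11 at chr11:102317484-102339403. Both had their highest mean at 0.25 µM, BIRC2 at 1.50 times its untreated level. Neither was called higher at 0.25 than at 0.15 µM (edgeR adjusted p = 0.101 for BIRC3 and 0.177 for BIRC2). A link between these neighbours was not tested. BIRC7, a BIR-domain protein, had 2 fragments in untreated cells and 49 at 1 µM, a ratio of 21.7 (5.69 to 184). Both untreated fragments of BIRC7 were in replicate 3, and the libraries at 1 µM held 6, 33 and 10. Without replicate 2 at 1 µM the ratio was 10.7, without untreated replicate 1 or 2 it was 14.7 or 14.3, and without untreated replicate 3 no untreated fragment was left.

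The lowest of the list at 1 µM were regulators of the apoptosome and a caspase-activated nuclease. AVEN, an inhibitor of APAF1 self-association, fell by 3.03 on the log2 scale, from 38.0 ± 4.43 to 4.66 ± 0.742 CPM (SD, n = 3, edgeR adjusted p = 1.04e-09). APIP, named as an APAF1-interacting protein and an enzyme of methionine salvage, fell by 2.01, from 65.6 ± 4.12 to 16.3 ± 2.84 CPM. DFFB, the nuclease that cuts DNA between nucleosomes, fell by 1.88, from 34.4 ± 3.48 to 9.33 ± 0.860 CPM. AVEN shares 30.8% of its exon bases with other genes. HCCS, which attaches heme to cytochrome c, fell by 1.47 at 1 µM beside the fall of CYCS.

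**Figure D5:**
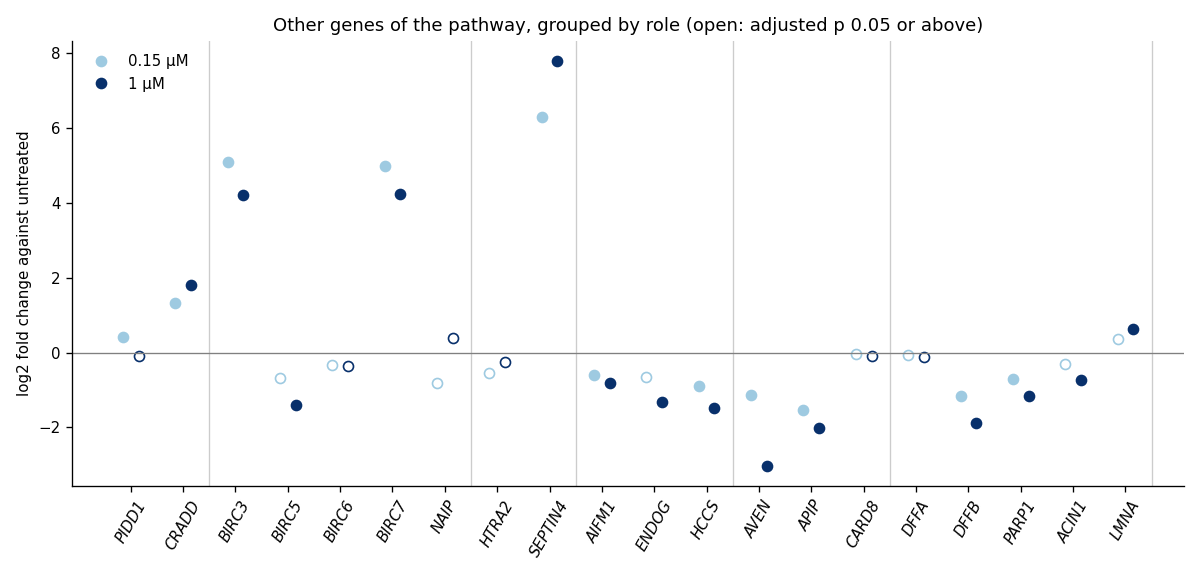
Log2 fold change against untreated cells (edgeR, TMM scaling) of the 20 tested other genes of the pathway at 0.15 and 1 µM, grouped by role with vertical lines between groups and open symbols where the adjusted p was 0.05 or above. SEPTIN4, BIRC3 and BIRC7 lie highest and AVEN lowest at 1 µM.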

How the data were processed

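The groups, doses and replicate numbers came from the labels of the 15 libraries. The authors trimmed reads with Trim Galore 0.6.10 and Trimmomatic, aligned them to hg38 with HISAT2 2.2.1, sorted them with SAMtools 1.21 and counted fragments per gene of GENCODE release 38 with featureCounts 1.5.3. Whether counting used strand is not given in the sources used here. The deposited table holds raw counts per gene and library. The authors also deposited FPKM for each library, in which the gene length is the genomic span for 7 of the 8 members and within 8 bases of it for XIAP, so the FPKM served only in alternatives. Symbols were matched to 60507 of the 60649 gene identifiers, and positions came from GENCODE v44, in which XIAP and BIRC2 carry later versions.

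Counts were fitted with edgeR 4.0.16 in R 4.3.3 over all 15 libraries with the group as the only term (filterByExpr, TMM, robust quasi-likelihood F test), and p-values were adjusted by the Benjamini-Hochberg method over the 23711 genes tested. A gene was called at an adjusted p under 0.05. The fit was tested on simulated counts in which few genes changed, up or down at random. That test does not cover scaling where most genes change, as they do here. CPM use TMM-scaled library sizes. Ratios used counts plus 0.5 per kilobase of exon under no other gene. The 27 alternatives per member and comparison were RLE scaling, library totals, TMM computed on genes averaging 10 CPM or more (high-CPM TMM), at least 10 counts in every library, no filter, DESeq2 1.42.0, a fit of the groups compared, the replicate block, leaving out each of the 15 libraries, limma 3.58.1 on log2(FPKM + 1) with and without the filter or on log2(FPKM + 0.1), and, added after seeing the data, leaving out the third libraries at 0.25 and 0.5 µM. Also added then were ratios of the low-count genes without each library. No replicate pair agreed within sampling noise (chi-square per degree of freedom of 6.49 or more). Deviations from the group means correlated between same-numbered libraries at 0.25 and 0.5 µM (0.266, 0.268 and 0.579), and in no other pair of groups above 0.0918. The deviations within a group cancel by construction, so the lower values are not independent of the highest. Whether all libraries of these doses were paired by number cannot be told from them, and the labels do not say so.

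The members and the list of other genes were chosen with earlier results of these data known. All 8 members and the 3 highest and 3 lowest other genes at 1 µM were to be named, with the 2 genes most like each member, and HCCS was added after its value was seen. Some genes of the list and of the naming rule are not reported here. No p-value was computed over the members as a list. Intervals on counts cover counting error only.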

Additional observations from a re-analysis of the deposited data

How the results depend on the processing

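Of the 1728 results of members under an alternative (64 comparisons by 27), 1571 kept their direction and their side of the threshold, 98 lost a call, 17 gained one and 42 changed sign. CASP2 against untreated cells turned to 0.26, 0.14 and 0.036 at 0.15, 0.5 and 1 µM with library totals, to 0.16, 0.16 and 0.063 with high-CPM TMM, and to 0.073 and 0.038 at 0.15 and 0.5 µM with at least 10 counts in every library. In limma it turned to 0.21, 0.094 and 0.026 on log2(FPKM + 1) with or without the filter and to 0.25, 0.11 and 0.031 on log2(FPKM + 0.1). XIAP at 0.25 µM turned to 0.11 with library totals, 0.065 on log2(FPKM + 1) with or without the filter and 0.095 on log2(FPKM + 0.1). BIRC2 at 1 µM turned to 0.24 with library totals, 0.26 with high-CPM TMM, 0.16 with at least 10 counts in every library, 0.15 on log2(FPKM + 1) with or without the filter and 0.22 on log2(FPKM + 0.1). Without the third libraries at 0.25 and 0.5 µM, BIRC2 at 0.5 µM turned to -0.063, and between 0.5 and 1 µM CASP2 turned to 0.0081, CASP9 to -0.015 and APAF1 to 0.14. The uncalled values that changed sign when 1 library was left out ranged from -0.10 to 0.19 for BIRC2 at 0.5 µM, from -0.22 to 0.32 and from -0.025 to 0.52 for DIABLO at 0.15 and 0.25 µM and, between 0.5 and 1 µM, from -0.15 to 0.016 for CASP2, -0.022 to 0.17 for CASP9, -0.13 to 0.14 for APAF1, -0.15 to 0.065 for CASP6 and -0.055 to 0.20 for DIABLO.

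Counts of all genes called fell to 7517, 8851, 9784 and 9690 at the 4 doses with at least 10 counts in every library, where only 14096 genes were tested. In limma on log2(FPKM + 1) without the filter the count was 6930 at 0.15 µM and 1783 from 0.15 to 0.25 µM, of 48321 tested. Members called at 0.15 µM were 3 on log2(FPKM + 1) with or without the filter. The 1 member called from 0.15 to 0.25 µM became 0 with RLE, library totals, at least 10 counts in every library, no filter, DESeq2, the groups compared alone and all 3 limma tests. With the groups compared alone, 1880 genes were called from 0.15 to 0.25 µM and 4794 genes and 2 members from 0.25 to 0.5 µM, where limma on log2(FPKM + 1) without the filter called 3 members. From 0.5 to 1 µM limma called 1 gene on log2(FPKM + 1), 1 on log2(FPKM + 0.1) and 13 without the filter. Leaving out each library gave 1740 to 4065 genes and 0 to 1 members from 0.15 to 0.25 µM and 2 to 6 members from 0.25 to 0.5 µM. The cause of these shifts was not tested.

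With the replicate number as a block, 7161 genes and the same number of members (6) were called between 0.25 and 0.5 µM. DIABLO had an edgeR adjusted p of 0.0499 there. The labels do not say that libraries of the same number belong together. In the other comparisons the block took away the call of CASP2 at 1 µM (-0.32, edgeR adjusted p = 0.0546). It gave a call to BIRC2 from 0.15 to 1 µM (-0.38, edgeR adjusted p = 0.0477). With 3 libraries a group, ratios could not reach an exact p under 0.1, and the counts of DIABLO limit any statement on it.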
